A study of Mus musculus with 24 samples.

Results

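Scavenger receptors and efferocytosis receptors are the surface molecules by which macrophages bind and take up modified lipoproteins, bacteria and dying cells. The 10 genes described here, taken by symbol from a fixed list that was drawn up with earlier results of these data known, are Cd36, Msr1, Marco, Cd163, Stab1 and Cd5l of the scavenger family and its secreted relatives, and Mertk, Axl, Gas6 and Mfge8 of the efferocytosis system. All 10 were found among the 54658 gene symbols of both count tables, and all 10 passed the low-count filter in peritoneal cells, hearts and lungs. Their levels and their response to β-nicotinamide mononucleotide (β-NMN), a precursor of NAD, were compared in 24 libraries of male C57BL/6 mice aged 7 to 12 weeks.

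The first table holds peritoneal exudate cells of 12 mice that had received 1 mL of 4% Brewer thioglycollate, an irritant that draws leukocytes into the abdomen. 6 of these mice had been given vehicle, which was 0.9% saline, and 6 had been given β-NMN at 185 mg/kg per day by intraperitoneal injection, and the plated cells of all 12 were exposed to live E. coli at 15 bacteria per cell for 6 h before RNA was made. The second table holds the hearts and lungs of 6 mice after cecal ligation and puncture (CLP), a surgical model of peritonitis with sepsis, of which 3 had vehicle and 3 had β-NMN at the same dose. Thioglycollate mice were injected once daily for 3 days, the first time together with the thioglycollate. CLP mice were injected once, right after surgery, and their organs were taken 24 h later. In each experiment the last dose preceded sacrifice by 24 h. No genetic change was made, every mouse had peritonitis, and no library of untouched or sham-operated mice was analysed, so every value is of an inflamed animal.

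Recognition of a dying cell is divided between receptors that touch it and soluble proteins that bridge it. Mertk and Axl are receptor tyrosine kinases of the TAM family. Gas6 is a secreted ligand of both, with one end that binds phosphatidylserine on the dying cell, and Mfge8 is a bridging protein that links phosphatidylserine to integrins of the phagocyte. Cd36 binds oxidized lipids and fatty acids, Msr1 and Marco are collagen-like receptors of the scavenger receptor A class that also bind bacteria, Cd163 clears haemoglobin bound to haptoglobin, Stab1 takes up modified proteins from the extracellular fluid, and Cd5l is a secreted scavenger protein of tissue macrophages.

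Before the results, 3 features of the libraries bear on what follows. Total counts ran from 31126823 to 112456050 in peritoneal cells, from 27319513 to 68523239 in hearts and from 8915366 to 28356786 in lungs. Both organs of the vehicle mouse numbered 2 stood apart: its genes deviated from the other libraries of their organ with an SD of 0.99 log2 units in the heart and 1.57 in the lung, where the other libraries lay between 0.39 and 0.60, and its lung was the shallowest library. The peritoneal samples had the markers of macrophages, with Adgre1, the F4/80 antigen, at 496 to 644 CPM in vehicle samples and 595 to 709 CPM in β-NMN samples, where CPM is the usual depth-scaled count with TMM factors applied. Cardiomyocyte genes in hearts and alveolar epithelial genes in lungs summed to at least 27833 and 22616 CPM.

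The TAM receptors Mertk and Axl gave different responses in peritoneal cells, and the largest change belonged to Cd163, so the sequence just upstream of these 3 genes is given first. Each is the 250 bases before the RefSeq start of the gene on GRCm38.p6, written 5′ to 3′ on the strand of the gene, and capitals mark a GC box (GGGCGG, on either strand). The Mertk window is chr2:128698665-128698914 on the plus strand, the Axl window is chr7:25788734-25788983 on the minus strand and the Cd163 window is chr6:124304401-124304650 on the plus strand.
Mertk: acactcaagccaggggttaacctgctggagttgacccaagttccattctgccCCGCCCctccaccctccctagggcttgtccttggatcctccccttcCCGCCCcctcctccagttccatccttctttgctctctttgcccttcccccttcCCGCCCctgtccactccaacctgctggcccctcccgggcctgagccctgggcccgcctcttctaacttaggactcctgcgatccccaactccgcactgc
Axl: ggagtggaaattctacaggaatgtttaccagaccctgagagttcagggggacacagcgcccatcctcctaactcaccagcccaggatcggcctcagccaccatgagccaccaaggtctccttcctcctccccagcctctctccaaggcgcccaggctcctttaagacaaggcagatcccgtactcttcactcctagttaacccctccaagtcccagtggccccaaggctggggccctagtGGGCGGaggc
Cd163: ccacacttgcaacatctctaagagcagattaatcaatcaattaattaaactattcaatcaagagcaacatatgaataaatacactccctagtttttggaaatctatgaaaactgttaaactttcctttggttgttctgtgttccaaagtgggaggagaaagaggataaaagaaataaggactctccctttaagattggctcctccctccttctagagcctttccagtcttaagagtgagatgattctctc

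The windows differed in base composition, at 63.6% G+C for Mertk, 60.0% for Axl and 36.8% for Cd163. 9 of the 10 genes were in the RefSeq promoter table, which spans 250 bases before to 50 after each start. A GC box was present in 5 of these 9 (Mertk, Axl, Cd36, Mfge8 and Gas6) and in 35.7% of all 32851 promoters. Mertk, which rose, and Axl, which was not called, both held it, and Cd163 did not. The other motifs searched on both strands were absent from all 9: the PU.1 site GAGGAAGT (3.2% of all promoters), the AP-1 site TGACTCA (5.2%), the C/EBP site TTGCGCAA (0.183%), the TATA box TATAAA (13.6%), the NF-κB site of the immunoglobulin kappa enhancer (0.155%) and the DR4 element of the liver X receptors (0.0152%). These are matches of letters in short windows and say nothing of binding, and the GC box was added to the search after the values were seen.

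In peritoneal cells, β-NMN raised the efferocytosis receptor Mertk, both bridging proteins Gas6 and Mfge8, and the scavenger receptors Cd36 and Cd163. Of the 10 genes, 5 were called higher and 0 lower at an adjusted p below 0.05 by edgeR's quasi-likelihood test, beside 23.7% of all 14985 genes tested called higher and 27.9% called lower. The other 5 genes were Cd5l, Stab1, Marco, Msr1 and Axl. The median log2 fold change of the 10 was 0.85, where that of all genes tested was -0.02. How many of all genes had every β-NMN sample above every vehicle sample was not counted in peritoneal cells, where 7733 of 14985 were called. A separation given below for a single gene is therefore not shown to be particular to it. In bulk RNA, fewer cells of a type and less RNA per cell cannot be told apart.

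**Figure D1:**
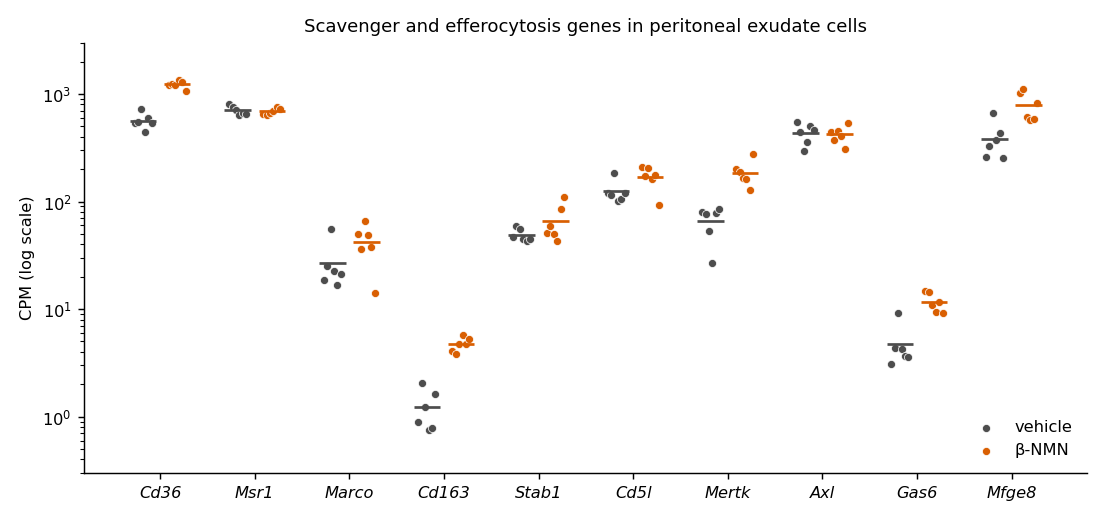
Level of the 10 genes in each peritoneal sample, in CPM on a log axis, with 6 vehicle samples in grey and 6 β-NMN samples in orange and a horizontal bar at each group mean. For Cd36, Cd163, Mertk and Gas6 every β-NMN sample lies above every vehicle sample, while the points of Msr1 and Axl overlap between the groups. The share of all genes that separate in this way was not counted.

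Mertk (chr2:128698956-128802894, GRCm38, as are all gene positions here) lay between 27.0 and 85.7 CPM in vehicle samples, with a median of 77.2, and between 129 and 275 CPM in β-NMN samples, with a median of 176. No β-NMN sample reached down to a vehicle sample. Mertk rose by 1.48 on the log2 scale (SE 0.24, n = 6 against 6, adjusted p = 0.000151), and the exact two-sided permutation test gave p = 0.00216, which is the smallest value that 6 against 6 samples allow.

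Axl (chr7:25757273-25788705), the sister receptor, spanned 293 to 546 CPM in vehicle samples and 311 to 538 CPM in β-NMN samples, with medians of 453 and 425. The groups overlapped over nearly their whole range. Its log2 fold change was -0.04 (SE 0.15, adjusted p = 0.833, permutation p = 0.857).

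The balance of the pair moved. Per kilobase of exon, Mertk stood at 0.0873 to 0.214 times Axl in vehicle samples, with a median of 0.19, and at 0.42 to 0.592 times Axl in β-NMN samples, with a median of 0.502. The ranges do not overlap, and Axl remained the more abundant receptor in all 12 samples. The ratio was looked at after the values of both genes were known and was given no test.

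Gas6 (chr8:13465374-13494490), their common ligand, was scarce in these cells. It measured 3.07 to 9.21 CPM with a median of 3.99 in vehicle samples and 9.28 to 14.9 CPM with a median of 11.3 in β-NMN samples. The groups touched without overlapping, because the vehicle sample numbered 3 held 9.21 CPM while the next vehicle sample held 4.32 CPM. Gas6 rose by 1.33 on the log2 scale (SE 0.24, adjusted p = 0.000304, permutation p = 0.00216), and by 1.67 (adjusted p = 1.07e-06) when that vehicle sample was left out. An exon stretch of 34 bases, 1.33% of Gas6, overlaps Tmem255b on the other strand, and whether the counting used strand is not stated in any source used here.

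Mfge8 (chr7:79133768-79149060) was far more abundant than Gas6, at 254 to 663 CPM in vehicle samples and 573 to 1107 CPM in β-NMN samples, with medians of 348 and 715. Here the groups overlapped, again through vehicle sample 3, which had the 663 CPM. Mfge8 rose by 1.03 (SE 0.24, adjusted p = 0.00238, permutation p = 0.00866).

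That vehicle sample also had the highest sum of fibroblast markers of all peritoneal samples, 956 CPM, against 89.6 to 438 CPM in the other vehicle samples and 19.8 to 85.7 CPM in β-NMN samples. Mfge8 and Gas6 are made by fibroblasts as well as by macrophages. All 4 fibroblast markers were called lower with β-NMN, and the 2 bridging genes were called higher. The part of fibroblast RNA in the single high vehicle sample, or in the change of the bridging genes between the groups, was not tested.

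Among the scavenger receptors, Cd36 (chr5:17781690-17888801) was the most abundant per kilobase in both groups, at 158 ± 25.1 CPM per kb of exon with vehicle and 342 ± 26.1 with β-NMN (SD, n = 6 each). The samples ranged from 447 to 719 CPM with vehicle, around a median of 545, and from 1061 to 1338 CPM with β-NMN, around a median of 1236. The gap between the groups was wider than the spread within either of them. Cd36 rose by 1.12 on the log2 scale (SE 0.11, adjusted p = 1.28e-06, permutation p = 0.00216).

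Cd163 (chr6:124304656-124330527) showed the largest change from the lowest level. Vehicle samples held 0.755 to 2.06 CPM with a median of 1.05, which was 26 to 166 reads, and β-NMN samples held 3.82 to 5.72 CPM with a median of 4.72. All β-NMN samples were above all vehicle samples. Cd163 rose by 1.95 (SE 0.24, adjusted p = 1.24e-05, permutation p = 0.00216), and it still ranked last of the 10 per kilobase with β-NMN, at 0.865 ± 0.132 CPM per kb.

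Msr1 (chr8:39581685-39642673), which ranked second per kilobase in vehicle samples at 111 ± 10.4 CPM per kb, did not follow Cd36. It spanned 641 to 808 CPM with vehicle and 642 to 760 CPM with β-NMN, with medians of 689 and 680. The groups overlapped almost completely, and the log2 fold change was -0.03 (SE 0.09, adjusted p = 0.784).

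Marco (chr1:120474538-120505024), the other collagen-like receptor, had medians of 22.1 CPM with vehicle and 43.2 CPM with β-NMN, but 1 sample of each group ran against its group. Vehicle sample 3 held 55.0 CPM where the other vehicle samples held 16.7 to 25.1, and β-NMN sample 6 held 14.1 CPM where the other β-NMN samples held 36.5 to 66.2. Over all 12 samples the log2 fold change was 0.67 (SE 0.33, adjusted p = 0.101), and it was called when either sample was left out, at 1.06 (adjusted p = 0.00553) without vehicle sample 3 and 0.88 (adjusted p = 0.0149) without β-NMN sample 6. With all samples it was called with the replicate number as a block (0.66, adjusted p = 0.0355), by limma-voom (1.07, adjusted p = 0.00171) and without a low-count filter (0.70, adjusted p = 0.0018). The DESeq2 test (0.70, adjusted p = 0.174), DESeq2 size factors and the newer quasi-likelihood form did not call it.

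Cd5l (chr3:87357881-87371073) had the same pair of discordant samples. Vehicle sample 3 was the highest of its group with 185 CPM and β-NMN sample 6 the lowest of its group with 92.5 CPM, and the medians were 118 and 175 CPM. The log2 fold change of 0.46 (SE 0.18) fell just short of the threshold with all samples (adjusted p = 0.0506) and passed it without vehicle sample 3 (0.65, adjusted p = 0.00529) or without β-NMN sample 6 (0.61, adjusted p = 0.00303). It was also called under 6 of the 6 other ways of processing.

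Stab1 (chr14:31139013-31168641) ranged from 43.3 to 58.7 CPM with vehicle and from 42.6 to 110 CPM with β-NMN, with medians of 46.1 and 55.6. The groups overlapped, and β-NMN samples 5 and 6, at 86.2 and 110 CPM, stood above the rest. Stab1 had a log2 fold change of 0.44 (SE 0.20, adjusted p = 0.0778). It passed the threshold without β-NMN sample 1 (0.53, adjusted p = 0.0475), 3 (0.55, adjusted p = 0.0386) or 4 (0.58, adjusted p = 0.0202). Without β-NMN sample 6 it dropped to 0.27 (adjusted p = 0.173), and limma-voom gave 0.20 (adjusted p = 0.324), while it was called under 1 of the 6 other ways of processing, without a low-count filter (0.46, adjusted p = 0.0158). Its exons share 1.09% of their length with Nt5dc2 on the other strand.

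The order of the genes per kilobase in vehicle samples was Cd36, Msr1, Axl, Mfge8, Cd5l, Mertk, Marco, Stab1, Gas6 and Cd163. Neighbouring genes overlapped in their ranges from Cd36 down to Cd5l, and so did Mertk and Marco. A clear step lay between Cd5l, at 61.2 ± 15.0 CPM per kb, and Mertk, at 15.3 ± 5.18. With β-NMN, Mfge8 at 167 ± 50.3 CPM per kb moved up to second place, and its range no longer met that of Msr1 or Cd36.

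To see how far the changes followed the macrophage RNA of a sample, each gene was also expressed relative to the summed CPM of 9 macrophage markers. That sum ranged from 9081 to 14686 CPM with vehicle and from 13132 to 14210 CPM with β-NMN. Within it Lyz2 and Mpeg1 were called higher and Cd14 and Aif1 lower, so it is not a fixed scale. The log2 ratio rose by 1.64 for Cd163, 1.23 for Mertk, 1.08 for Gas6, 0.82 for Cd36 and 0.75 for Mfge8, with exact permutation p from 0.00216 to 0.0108 over these 5.

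Msr1 was the only one of the 10 whose ratio was lower with β-NMN at a permutation p under 0.05. Its log2 ratio dropped by 0.33 (exact permutation p = 0.0108), and it dropped by 0.23 (p = 0.0173) when Adgre1 alone was the scale. The other 4 genes differed by -0.34 to 0.35 with permutation p from 0.19 to 0.777.

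Markers of other cells moved with the treatment too. The summed level of 7 neutrophil genes was 108 to 309 CPM with vehicle and 19.99 to 51.4 CPM with β-NMN, with 4 of the 6 tested called lower and 1 higher, and all 4 tested T cell genes were called lower. All 4 haemoglobin genes of red blood cells were called higher, from 2.82 to 37.8 CPM with vehicle to 51.2 to 129 CPM with β-NMN. Of the resident peritoneal macrophage list, 3 of 7 tested were called higher and 3 lower. Its sum was 33.1 to 44.5 CPM with vehicle, and 67.7 to 99.1 CPM in 5 of the β-NMN samples and 34.9 CPM in β-NMN sample 6. Its transcription factor Gata6 was low, at 0.99 to 5.66 CPM with vehicle and 0.833 to 2.05 CPM with β-NMN. Of the alveolar macrophage list, 2 of 5 tested were called higher and 0 lower, and its sum separated the groups, at 50.4 to 84.4 CPM with vehicle and 104.6 to 190.3 CPM with β-NMN. The dendritic cell sum separated them the other way, at 32.7 to 53.0 CPM with vehicle and 14.1 to 18.3 CPM with β-NMN, with 1 of 5 called higher and 3 lower. The part of these shifts in the changes of the 10 genes was not tested.

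The rest of the uptake pathway was read from 6 companion lists. Of 14 further scavenger receptors, 6 were called higher and 4 lower in peritoneal cells, with a median log2 fold change of 0.28. Cd68, a lysosomal glycoprotein of macrophages, rose by 0.84 (SE 0.10), and Mrc1, the mannose receptor, rose by 1.05 (SE 0.14). Scarf2 fell by 1.98 (SE 0.35), from a median of 2.20 CPM.

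**Figure D2:**
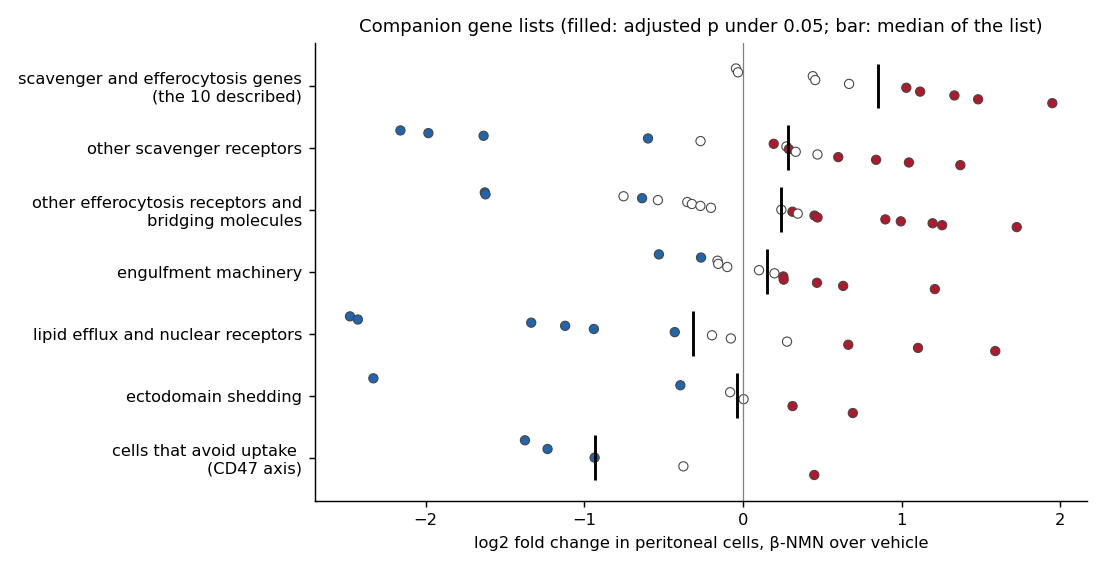
Log2 fold change (β-NMN over vehicle) of each tested gene in peritoneal cells for the 10 genes and 6 companion lists, where filled points have an adjusted p under 0.05 (red higher, blue lower), vertical bars mark list medians and vertical position only separates the points. The 10 genes have a median of 0.85 and no filled point below 0, whereas each of the 6 companion lists has filled points on both sides.

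Of 19 tested genes for other efferocytosis receptors and bridging molecules, 8 were called higher and 3 lower, with a median of 0.24. Pros1, protein S, the second TAM ligand, rose by 1.25 (SE 0.12), which is close in size to Gas6. Anxa1, an annexin exposed on dying cells, rose by 1.20 (SE 0.12), and Cd300a, an inhibitory phosphatidylserine receptor, rose by 0.90 (SE 0.11).

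The next list holds the engulfment machinery that acts after binding. Of its 12 tested genes, 5 were called higher and 2 lower, with a median of 0.15. Lipa, the lysosomal acid lipase, rose by 1.21 (SE 0.11), and Ucp2, a mitochondrial carrier linked to continued uptake, rose by 0.63 (SE 0.13), while Vav1, an activator of Rac GTPases, fell by 0.53 (SE 0.09).

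Genes of lipid efflux and the nuclear receptors that govern several scavenger receptors were split, with 3 of 12 called higher and 6 lower and a median of -0.31. Pparg, a nuclear receptor known to drive Cd36, rose by 1.59 (SE 0.12). Its relative Ppard fell by 1.12 (SE 0.11), and Nr4a1, an immediate early nuclear receptor, fell by 2.48 (SE 0.18).

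The sheddases and their partners, which cut Mertk, Axl and Cd163 from the cell surface, gave 2 called higher and 2 lower of 6. Adam10, a sheddase, rose by 0.31 (SE 0.08), a call that was lost without the low-count filter (adjusted p = 0.0624). Rhbdf2, a partner of Adam17, fell by 0.39 (SE 0.10), and Timp3, an inhibitor of these proteases, fell by 2.33 (SE 0.53). Timp3 is also expressed by fibroblasts, whose markers fell as given above, and the part of fibroblast RNA in the fall of Timp3 was not tested. Of the 5 genes by which cells avoid uptake, 1 was called higher and 3 lower, with Cd24a down by 1.23 (SE 0.14), Sirpa, the CD47 receptor on phagocytes, by 0.93 (SE 0.14) and Pecam1 by 1.37 (SE 0.29).

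In hearts of CLP mice none of the 10 genes was called. This was true of every gene, as 0% of 16245 genes were called higher and 0% lower by edgeR's quasi-likelihood test, although 1837 had an unadjusted p under 0.05. Judged by separation of the samples, 3 of the 10 genes were below every vehicle heart in each of the β-NMN hearts (Cd163, Msr1 and Axl) and 1 was above (Mfge8), beside 11.5% and 11.6% of all genes. With 3 against 3 samples the exact permutation test cannot go below p = 0.1, which these 4 genes reached.

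**Figure D3:**
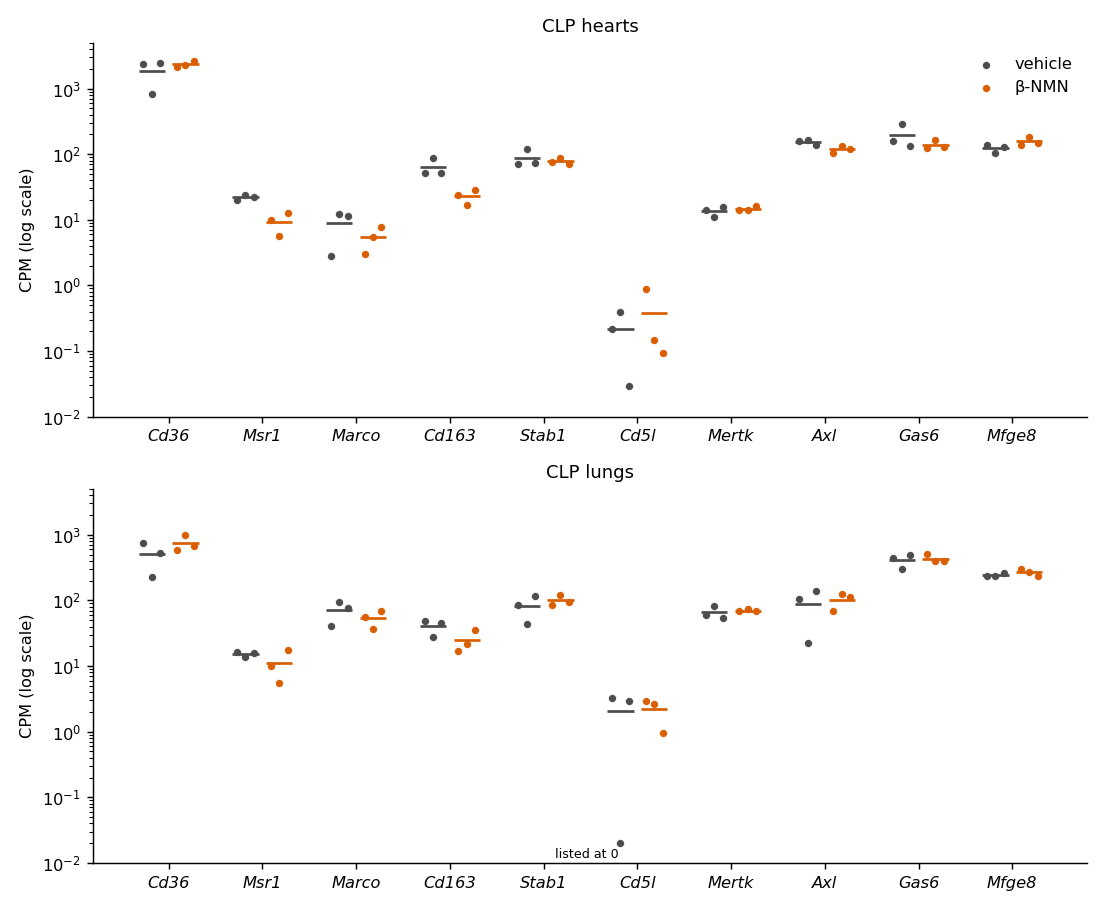
Level of the 10 genes in each CLP heart (top) and lung (bottom), in CPM on a log axis, with 3 vehicle samples in grey, 3 β-NMN samples in orange and bars at the group means. In hearts the β-NMN points of Msr1, Cd163 and Axl lie below all vehicle points, in lungs the groups overlap for all 10 genes, and the lung value of Cd5l listed at 0 is drawn at 0.02.

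Cd163 was at 51.0, 86.8 and 52.4 CPM in the vehicle hearts and at 23.8, 16.98 and 28.7 CPM in the β-NMN hearts. The lowest vehicle heart was thus well above the highest β-NMN heart. The log2 fold change was -1.45 (SE 0.28, unadjusted p = 0.00127, adjusted p = 0.435), and it was -1.17 (adjusted p = 0.148) without the vehicle heart numbered 2, which had the 86.8 CPM.

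Msr1 read 20.4, 24.0 and 22.0 CPM with vehicle and 9.83, 5.69 and 12.7 CPM with β-NMN. The vehicle hearts lay close together and all β-NMN hearts were below them. The log2 fold change was -1.23 (SE 0.28, unadjusted p = 0.00325, adjusted p = 0.435), and leaving out vehicle heart 2 gave -1.18.

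DESeq2, run as an alternative, called 267 genes in hearts, among them Cd163 (log2 fold change -1.44, adjusted p = 0.000721) and Msr1 (-1.22, adjusted p = 0.0108), and no other of the 10. The call of these genes therefore depends on the test, while their direction was the same in all alternatives run.

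Axl was at 157, 164 and 139 CPM with vehicle and 103, 134 and 118 CPM with β-NMN, a narrow separation with a log2 fold change of -0.38 (SE 0.14, adjusted p = 0.435). Mertk measured 14.2, 11.04 and 15.5 CPM with vehicle and 14.0, 14.2 and 16.3 CPM with β-NMN, and the groups overlapped. Mertk was scarce beside Axl in hearts, at 0.0782 to 0.13 times Axl per kilobase with vehicle and 0.123 to 0.161 times with β-NMN.

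The bridging genes did not separate alike. Mfge8 read 137, 103 and 130 CPM with vehicle and 140, 180 and 149 CPM with β-NMN, a log2 fold change of 0.34 (SE 0.16, adjusted p = 0.443) with the groups just apart. Gas6 read 158, 293 and 133 CPM with vehicle and 124, 163 and 129 CPM with β-NMN. Its log2 fold change of -0.49 (SE 0.30) shrank to -0.08 without vehicle heart 2, so the size of the difference rests on that heart.

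Cd36 was the most abundant of the 10 in hearts, at 2335, 825 and 2465 CPM with vehicle and 2116, 2254 and 2648 CPM with β-NMN. This gave a log2 fold change of 0.32 (SE 0.41) with all hearts and -0.04 without vehicle heart 2. In that heart the cardiomyocyte markers summed to 27833 CPM against 42964 to 49210 CPM in the others, and mesothelial markers to 100 CPM against 5.92 to 13.9 CPM. Cardiomyocytes take up fatty acids through Cd36, and the part of the makeup of that heart in its low Cd36 was not tested.

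Stab1 (70.7, 120 and 73.3 CPM against 76.3, 86.2 and 70.6 CPM) and Marco (2.77, 12.3 and 11.3 CPM against 3.05, 5.38 and 7.75 CPM) overlapped between the groups. Cd5l was close to absent from hearts, with 1 to 24 reads per library.

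The macrophage marker sum of the hearts overlapped between groups, at 244 to 391 CPM with vehicle and 267 to 484 CPM with β-NMN. Relative to that sum the log2 level of Cd163 was lower by 1.66 and that of Msr1 by 1.52 (exact permutation p = 0.1 each). The sums of 6 other marker lists separated the groups, with no gene of them called. Those of monocytes were lower with β-NMN, at 29.6 to 72.9 CPM with vehicle and 14.4 to 18.5 CPM with β-NMN, as were those of neutrophils, at 17.7 to 35.6 and 12.1 to 14.2 CPM, and of the resident peritoneal macrophage list, at 291 to 1098 and 248.9 to 288 CPM. In the peritoneal cells themselves the resident list summed to only 33.1 to 99.1 CPM, so its heart sum was not read as a level of peritoneal macrophages. Higher with β-NMN were the sums of cardiomyocytes, at 27833 to 43303 and 45475 to 49210 CPM, of endothelial cells, at 790 to 815 and 828 to 983 CPM, and of dendritic cells, at 13.5 to 24.4 and 25.9 to 29.0 CPM. The part of these shifts in the values of the 10 genes was not tested.

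In the companion lists, no gene was called in hearts by edgeR. The smallest unadjusted p in 5 of the 6 lists fell on Mrc1 (log2 fold change -1.42, SE 0.26, unadjusted p = 0.000981), Itgb3, an integrin that receives Mfge8 (-1.70, SE 0.48), Ucp2 (-1.56, SE 0.46), Timp3 (-0.39, SE 0.13) and Cd24a (-1.07, SE 0.44). All 5 were lower with β-NMN. DESeq2 called 3 of them, Mrc1 (adjusted p = 0.000484), Itgb3 (adjusted p = 0.0229) and Ucp2 (adjusted p = 0.0274). Without vehicle heart 2 the edgeR differences were -0.97 for Itgb3, -0.81 for Ucp2 and -0.64 for Cd24a. Over the 14 further scavenger receptors 11 had a log2 fold change below 0, with a median of -0.43, where the median of all genes was -0.01.

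In lungs of the same mice none of the 10 genes was called, and none had an unadjusted p under 0.05. Of 17008 genes, 0% were called higher and 0% lower, and 301 had an unadjusted p under 0.05; DESeq2 and limma-voom called 7 genes each, none of the 10. The groups overlapped for all 10 genes, beside 4.47% of all genes with all β-NMN lungs above and 3.75% with all below the vehicle lungs.

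Cd163 came nearest to a difference, at 48.3, 27.4 and 45.1 CPM with vehicle and 16.996, 22.0 and 34.9 CPM with β-NMN. The highest β-NMN lung stood above the lowest vehicle lung, which was that of mouse 2. The log2 fold change was -0.71 (SE 0.35, unadjusted p = 0.0812, adjusted p = 0.969), and -0.92 without that lung.

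Msr1 read 16.6, 13.6 and 15.8 CPM with vehicle and 9.93, 5.57 and 17.4 CPM with β-NMN, a log2 fold change of -0.48 (SE 0.42) that was -0.16 without β-NMN lung 2 and -0.98 without β-NMN lung 3. Marco, a receptor of alveolar macrophages, read 40.6, 93.6 and 77.7 CPM with vehicle and 56.5, 36.9 and 67.9 CPM with β-NMN. In both, the spread within a group was as wide as the distance between the groups.

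Mertk was level across the lungs, at 59.5, 82.8 and 54.8 CPM with vehicle and 67.8, 73.1 and 68.8 CPM with β-NMN. Axl was at 106, 22.5 and 139 CPM with vehicle and 69.4, 124 and 113 CPM with β-NMN. Mouse 2, at 22.5 CPM, had the lowest Axl and the highest Mertk of all lungs. Without its lung, the log2 fold change of Axl turned from 0.19 (SE 0.61) to -0.26.

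Gas6 was abundant in lungs, at 447, 296 and 486 CPM with vehicle and 511, 398 and 395 CPM with β-NMN, and Mfge8 read 234, 238 and 264 CPM with vehicle and 304, 271 and 238 CPM with β-NMN. Their log2 fold changes were 0.08 (SE 0.29) and 0.14 (SE 0.23). Cd36 ranged from 230 to 755 CPM with vehicle and from 581 to 993 CPM with β-NMN, with a log2 fold change of 0.56 (SE 0.47) that fell to 0.21 without mouse 2. Stab1 (84.0, 44.1 and 117 CPM against 85.0, 121 and 96.2 CPM) and Cd5l (0 to 97 reads per library) gave 0.30 (SE 0.37) and 0.02 (SE 1.04), and without mouse 2 that of Stab1 was 0.003.

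Within the companion lists no lung gene was called. The genes with the smallest unadjusted p were Olr1, the oxidized lipoprotein receptor (log2 fold change 0.69, SE 0.40), Cd300a (-0.63, SE 0.22), Elmo1, an engulfment adaptor (0.29, SE 0.23), Nr4a1 (-0.66, SE 0.23), Rhbdf2 (-0.47, SE 0.22) and Cd47, the signal that blocks uptake (-0.91, SE 0.64). The difference of Cd47 turned to 0.16 without mouse 2. The macrophage marker sum was 1510 to 4438 CPM with vehicle and 5121 to 5586 CPM with β-NMN, of which Lyz2, a gene that alveolar type 2 cells also express, made up 1059 to 3920 and 4674 to 5177 CPM. The sums of dendritic cells (42.0 to 75.6 and 77.0 to 97.2 CPM) and eosinophils (15.3 to 34.6 and 35.0 to 44.2 CPM) were also higher in all β-NMN lungs, and that of cardiomyocytes was lower (227 to 310 and 64.1 to 224 CPM). Siglecf of the eosinophil list is also in the alveolar macrophage list, so that sum is not specific to eosinophils. Relative to the macrophage sum, the log2 level was lower by 1.55 for Cd163, 1.44 for Msr1, 0.71 for Gas6 and 0.68 for Mfge8 (exact permutation p = 0.1 each, the smallest possible). With Adgre1 alone as the scale, p was 0.1 for Cd163, 0.3 for Msr1, 0.5 for Gas6 and 0.6 for Mfge8 by the same exact test. The part of these separations in the lung values was not tested.

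**Figure D4:**
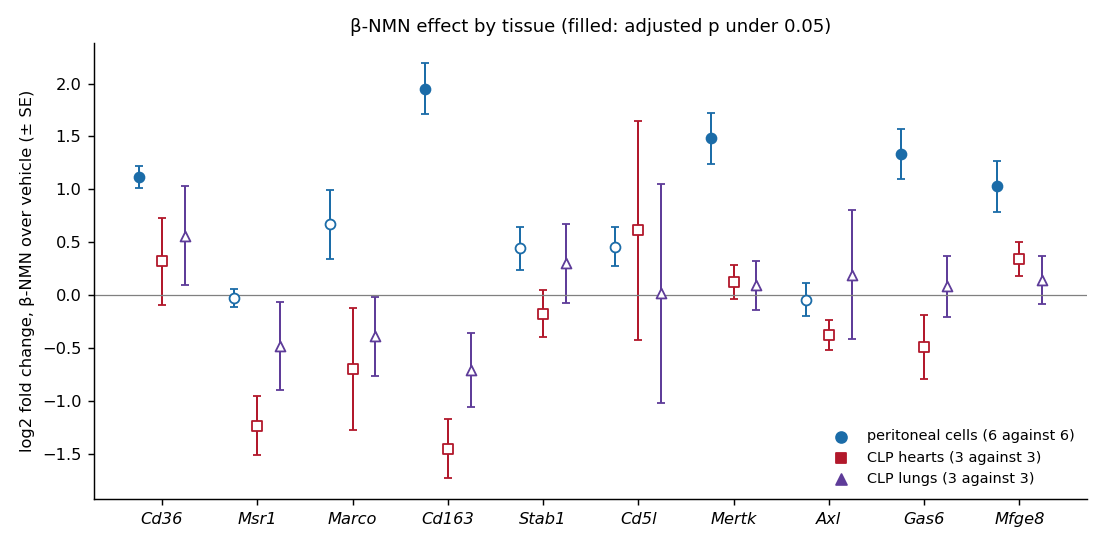
Log2 fold change with its standard error for the 10 genes in peritoneal cells (circles, 6 against 6), CLP hearts (squares, 3 against 3) and CLP lungs (triangles, 3 against 3), filled where the adjusted p was under 0.05. The filled points are the 5 peritoneal ones of Cd36, Cd163, Mertk, Gas6 and Mfge8, and Cd163 lies at 1.95 in peritoneal cells, -1.45 in hearts and -0.71 in lungs.

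The β-NMN effect was compared between hearts and lungs by an interaction term over the 12 CLP libraries. The libraries were treated as independent, although each mouse gave both organs. None of the 10 genes differed, nor did any of the 18318 genes tested (0% higher and 0% lower, 797 with an unadjusted p under 0.05, 7 called by DESeq2). The interaction of Cd163 was -0.74 (SE 0.49, unadjusted p = 0.157) and that of Msr1 -0.76 (SE 0.54, unadjusted p = 0.182). The effects in peritoneal cells were not compared with these by a test, since the 2 tables come from separate experiments with different numbers of doses.

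Many more genes were called between the organs of the CLP mice than between their treatments. Comparing hearts with lungs over all 6 mice, 4 of the 10 genes were called higher in hearts (Cd36, Axl, Cd163 and Msr1) and 4 lower (Marco, Cd5l, Mertk and Gas6), beside 28.9% and 35.9% of all genes. Mfge8 was not called, and Stab1, at a log2 difference of 0.53 (adjusted p = 0.074), was called by DESeq2 (0.56, adjusted p = 0.0425) and by edgeR with DESeq2 size factors (0.56, adjusted p = 0.0461). It was also called by edgeR without vehicle mouse 2 (0.34, adjusted p = 0.0366) or vehicle mouse 3 (0.79, adjusted p = 0.0205). The median log2 difference of all genes was -0.14 under this scaling.

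Cd36 had a mean of 2670 ± 835 CPM in hearts and 501 ± 208 CPM in lungs (SD, n = 6 each, scaled jointly), a log2 difference of 2.43 (SE 0.36, adjusted p = 0.000102), and was higher in the heart of 6 of 6 mice. Axl was also higher in 6 of 6 mice, by 1.15 (SE 0.36, adjusted p = 0.0135), as were Cd163 by 0.94 (SE 0.25) and Msr1 by 0.82 (SE 0.27). Marco, the alveolar macrophage receptor, was lower in 6 of 6 hearts, with 8.95 ± 5.09 CPM against 48.9 ± 16.04 CPM and a log2 difference of -2.48 (SE 0.38, adjusted p = 0.00013).

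The TAM receptors had opposite organ patterns. Mertk was lower in 6 of 6 hearts, with 17.98 ± 2.34 CPM in hearts and 53.4 ± 6.17 CPM in lungs and a log2 difference of -1.57 (SE 0.14, adjusted p = 1.38e-06). Gas6 was lower in 5 of 6 hearts, by 0.69 (SE 0.22, adjusted p = 0.0172), and Cd5l in 5 of 6, by 2.29 (SE 0.81, adjusted p = 0.0265). With the mouse as a block, 4 genes were higher and 2 lower, because Gas6 (adjusted p = 0.0505) and Cd5l (adjusted p = 0.0579) lost their calls. Leaving out 1 mouse at a time gave 2 to 5 genes higher and 2 to 4 lower. The 2 higher were found without β-NMN mouse 1, where Axl and Msr1 lost their calls, and the 2 lower without β-NMN mouse 3, vehicle mouse 1 or vehicle mouse 3.

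**Figure D5:**
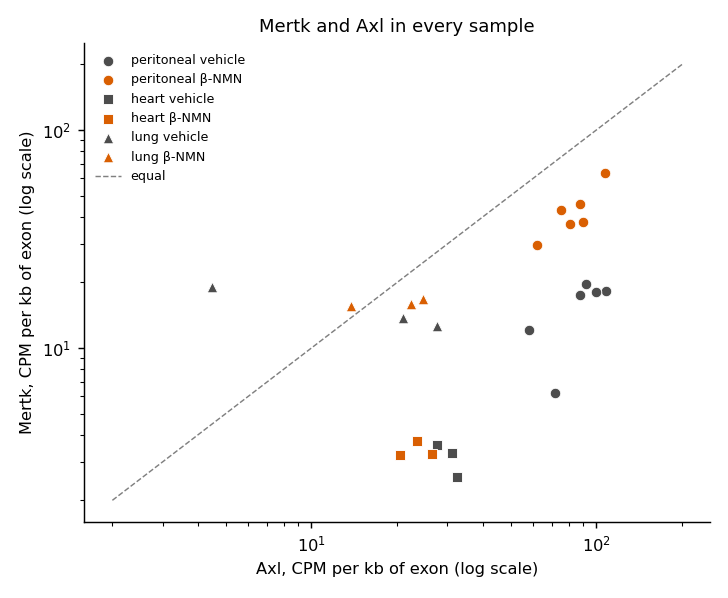
Mertk against Axl in each of the 24 samples, in CPM per kilobase of exon on log axes, with circles for peritoneal cells, squares for hearts and triangles for lungs, grey for vehicle and orange for β-NMN, and a dashed line of equality. β-NMN peritoneal samples lie above the vehicle ones at similar Axl, hearts lie far below the line at 0.0782 to 0.161 times Axl, and lungs lie near it except vehicle mouse 2 at 4.26 times.

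In the plot of Mertk against Axl, 5 of the 6 vehicle peritoneal samples had a higher ratio than every heart, and vehicle sample 4, at 0.0873, lay among the hearts. 5 of the 6 lungs had a higher ratio than every peritoneal sample, and vehicle lung 3, at 0.456, lay among the β-NMN peritoneal samples. In lungs Mertk was 0.456 to 4.26 times Axl with vehicle, where 4.26 was mouse 2, and 0.683 to 1.13 times with β-NMN. The ligand followed another order. Gas6 was 0.0658 to 0.297 times Mertk per kilobase in vehicle peritoneal cells, 14.6 to 45.1 times in vehicle hearts and 6.09 to 15.1 times in vehicle lungs. Gas6 transcript was thus scarcer than Mertk in plated exudate cells and more abundant than Mertk in the hearts and lungs. The 2 tables were scaled separately, and a ratio within 1 sample does not depend on that scaling.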

How the data were processed

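For each experiment the authors deposited 1 table of raw read counts per gene symbol, 54658 symbols by 12 libraries. Reads were aligned with STAR (2.7.3a in the submitters' processing notes) to mm10 and counted with featureCounts 2.0.0. The annotation, the strand setting and any filter are not given in the sources used here, and the methods differ on whether reads were single or paired. CLP samples were grouped by title and tissue, because another label names thioglycollate for them, and 1 of the 2 β-NMN hearts numbered 3 was taken as number 2, the number of its lung.

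For each tissue a separate edgeR 4.0.16 model was run in R 4.3.3 with filterByExpr, TMM, estimateDisp and the legacy quasi-likelihood F-test. Genes with a Benjamini-Hochberg adjusted p under 0.05 over all genes tested were called. Organs were compared over the 12 CLP libraries without the mouse in the model, and with the mouse as a block in an alternative. The fits were tested on simulated counts. Log2 CPM used a prior count of 2, CPM per kb the exon union of GENCODE M21, and ratios to marker sums added 0.1 CPM. Single genes were compared by exact two-sided permutation of mean log2 CPM, for the 10 genes in each tissue. Alternatives were DESeq2 1.42.0 or its size factors, limma 3.58.1 with voom quality weights, no low-count filter, the newer quasi-likelihood form, the replicate number as a block, and leaving out each library. p-values measure the spread between these mice.

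Same-numbered samples correlated by -0.17 to 0.13 in peritoneal cells, 0.07 to 0.24 in hearts and -0.52 to 0.30 in lungs. All 6 hearts correlated best with the heart of their own number, against 1 peritoneal sample and 1 lung. The main tests did not pair mice by number within a tissue, and the number was a block in an alternative. Heart and lung came from the same mice. All pairs of replicates differed by far more than counting error. The 10 genes, the companion and marker lists and the motifs were chosen with earlier results of these data known. All 10 genes are named, together with, from each companion list, the 3 tested genes with the smallest unadjusted p in peritoneal cells and the 1 in hearts and in lungs, except 1 that is not reported here. Protein sequences were not used here. Further marker lists gave these counts in peritoneal cells: monocytes 0 higher and 2 lower of 6, B cells 0 and 2 of 4, dendritic cells 1 and 3 of 5, mast cells 0 and 1 of 5, mesothelial cells 0 and 3 of 4 tested, endothelial cells 0 and 2 of 3 tested, eosinophils 1 and 0 of 2 tested, alveolar epithelial cells 1 and 0 of 1 tested (summed level 5.31 to 11.6 CPM with vehicle and 15.1 to 16.6 CPM with β-NMN) and cardiomyocytes 0 and 0 of 2 tested; no adipocyte marker was tested.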

Additional observations from a re-analysis of the deposited data

Results flagged for a closer look

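In groups of 6, a highest or lowest value was marked when its gap to the nearest other value, as a share of the range of the group, passed Dixon's limit. Among 20 groups of peritoneal samples, chance marks about 1 in 20, and 4 values were marked. Vehicle sample 3 was the highest of its group for Gas6 (gap 0.691 of the range), Cd5l (0.714) and Marco (0.659), and β-NMN sample 6 was the lowest of its group for Cd5l (0.684). Marco and Cd5l were called higher without either of these samples, as given with their values.

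For Cd163, each β-NMN peritoneal sample was above each vehicle sample, while each β-NMN heart was below each vehicle heart. Its log2 fold changes in the 2 tissues differed by 3.40, and this difference was not tested.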

How the results depend on the processing

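Across 6 alternatives and 12 left-out libraries, Cd36, Cd163, Mertk, Gas6 and Mfge8 stayed called higher in peritoneal cells in every case, and none of the 10 genes was called lower. The number called higher was 5, rose to 8 without a low-count filter, and was 5 to 7 with 1 library left out. With the replicate number as a block it was 7, with 7010 genes called in all in place of 7733; the block gave no call in hearts or lungs, although all 6 hearts correlated best with the heart of their own number, against 1 of the peritoneal samples and 1 of the lungs. For the hearts, DESeq2 called 2 of the 10 lower.

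Over all genes, the hearts had 0 calls with edgeR, 267 with DESeq2, 3 without a filter, 3 with limma-voom and 0 to 5 with 1 library left out (5 without vehicle heart 2); the lungs had 7 with DESeq2 and 7 with limma-voom; and the interaction had 2 without a filter and 7 with DESeq2. For heart against lung, the mouse as a block left 2 genes lower in place of 4, and leaving out 1 mouse gave 2 to 5 higher and 2 to 4 lower.

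Directions that turned all belonged to uncalled genes. With 1 library left out, log2 fold changes ran from -0.096 to 0.060 for Axl and from -0.057 to 0.039 for Msr1 in peritoneal cells; in hearts from -0.044 to 0.57 for Cd36, from -0.87 to 1.26 for Cd5l, from -0.012 to 0.23 for Mertk and from -0.31 to 0.10 for Stab1; and in lungs from -0.26 to 0.67 for Axl, from -0.52 to 0.48 for Cd5l, from -0.10 to 0.24 for Gas6, from -1.23 to 0.16 for Cd47 and from -6.8e-05 to 0.29 for Mertk. Under limma-voom they turned to -0.026 for Cd36, 0.24 for Marco and 0.10 for Stab1 in hearts, and to -0.066 for Axl, -1.18 for Cd5l, -0.15 for Gas6 and 0.22 for Marco in lungs. Lung Cd5l was also -0.016 without a filter and -0.038 with the newer quasi-likelihood form. The cause was not tested. Each organ had 3 mice a group, leaving out 1 lung gave 0 calls in every case, and Cd5l in hearts rests on 24 reads or fewer.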
